A study of Mus musculus with 6 samples.

Results

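Semaphorins and ephrins are guidance ligands, and plexins and Eph receptors are the receptors that bind them. To describe where this signalling family was transcribed in the fracture callus, all genes were taken whose symbols name a semaphorin of classes 3 to 7, a plexin, an ephrin or an Eph receptor. The rule gave 51 of the 52081 genes that every library lists, comprising 20 semaphorins, 9 plexins, 8 ephrins and 14 Eph receptors. No measured value entered the choice.

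Class 3 semaphorins are secreted and mostly signal through plexins with a neuropilin as co-receptor, whereas most of the other classes in vertebrates are bound to the membrane. Ephrins stay on the cell surface, so that a ligand-bearing and a receptor-bearing cell must touch and both can receive a signal. In bone, osteoclast Sema4d acting on Plxnb1 of osteoblasts, and osteoclast Efnb2 paired with Ephb4 of osteoblasts, are textbook examples of communication between the cells that resorb and the cells that form bone. In vessels, Efnb2 marks arterial and Ephb4 venous endothelium during development.

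The mice were 12 weeks old and had a mid-femoral fracture, and calluses were taken at 14 days post-fracture (dpf). The paper describes the animals as male. The data hold 3 control libraries, given as wt in the labels and as Piezo1 f/f in the paper, and 3 libraries labelled knockout, each from 1 mouse, whose labels write Piezo3-/- and which the paper names Piezo1Col2a1. Per the paper, tamoxifen (75 mg/kg) was given to all mice daily for 5 days starting on day 5, and Col2a1-CreERT2 deletes the floxed Piezo1, which encodes a mechanically gated ion channel, in cells that express Col2a1. Single cells were sequenced from the 3′ ends of transcripts, and each captured transcript was counted once by its unique molecular identifier (UMI).

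Because the arterial and venous pair and the plexin with the most UMIs carry much of what follows, the promoters of Efnb2, Ephb4, Sema3g and Plxnd1 are shown first. Each stretch of 300 bases, 250 before and 50 after the start of the gene, is from RefSeq on GRCm38.p6 and reads 5′ to 3′ along the gene. Capitals mark every match, on either strand, to the GC box GGGCGG and to the core TGGGAA that RBPJ, the DNA-binding protein of Notch signalling, recognizes, and no matches overlap.
Efnb2, at chr8:8661193-8661492 on the minus strand: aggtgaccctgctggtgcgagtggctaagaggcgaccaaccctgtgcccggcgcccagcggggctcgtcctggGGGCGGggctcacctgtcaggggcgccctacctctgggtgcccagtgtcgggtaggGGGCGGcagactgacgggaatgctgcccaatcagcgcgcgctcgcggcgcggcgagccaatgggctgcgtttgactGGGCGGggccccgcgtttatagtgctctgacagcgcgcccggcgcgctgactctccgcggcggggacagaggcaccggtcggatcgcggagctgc
Ephb4, at chr5:137349859-137350158 on the plus strand: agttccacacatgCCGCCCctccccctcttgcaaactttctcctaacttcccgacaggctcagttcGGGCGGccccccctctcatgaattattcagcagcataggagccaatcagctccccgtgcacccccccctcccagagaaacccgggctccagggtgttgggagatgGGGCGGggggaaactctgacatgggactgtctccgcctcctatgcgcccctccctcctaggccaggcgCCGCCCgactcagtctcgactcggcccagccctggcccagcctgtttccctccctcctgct
Sema3g, at chr14:31217623-31217922 on the plus strand: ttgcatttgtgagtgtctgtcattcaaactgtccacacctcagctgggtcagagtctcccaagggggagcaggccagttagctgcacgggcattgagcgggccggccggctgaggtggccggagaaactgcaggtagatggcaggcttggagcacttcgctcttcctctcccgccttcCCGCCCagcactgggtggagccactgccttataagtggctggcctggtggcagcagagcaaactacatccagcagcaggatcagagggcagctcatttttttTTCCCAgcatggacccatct
Plxnd1, at chr6:115994956-115995255 on the minus strand: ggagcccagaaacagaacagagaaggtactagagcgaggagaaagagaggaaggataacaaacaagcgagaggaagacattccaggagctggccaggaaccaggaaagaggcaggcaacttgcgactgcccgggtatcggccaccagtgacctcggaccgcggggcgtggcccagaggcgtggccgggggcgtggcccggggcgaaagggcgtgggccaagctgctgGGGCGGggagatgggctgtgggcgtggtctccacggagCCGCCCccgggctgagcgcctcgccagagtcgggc

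Efnb2 held 3 GC boxes, Ephb4 held 4, Plxnd1 held 2 and Sema3g held 1, and the RBPJ core was found once, in Sema3g, beginning 31 bases after the start. The windows ranged from 58.7% GC in Sema3g to 72.3% GC in Efnb2. Promoters in RefSeq were found for 45 of the 51 genes, with 59 windows in all. The GC box occurred in 74.6% of these windows and in 35.7% of all 32851 windows of the same length. The RBPJ core occurred in 23.7% and 25.6%, the RUNX core TGTGGT in 13.6% and 16.8%, the ETS core CCGGAA in 10.17% and 14.9%, and the SOX core ACAAAG in 16.9% and 18.7%. These are matches of letters, and no binding was measured.

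The 6 libraries held 57626530 to 103784364 UMIs, with medians of 2554 to 9289.5 UMIs per barcode, and 41863 cells were kept. Libraries shared at most 36 barcodes, 0.383% of the smaller library. Knockout library 3 stood apart. Xist, counted in UMIs per 1000000 UMIs of the library (UPM), reached 579 UPM there and at most 0.168 UPM in the other 5 libraries. The Y-linked gene Ddx3y was at 0 UPM against 52.3 to 124 UPM. These are levels of female cells, whereas the paper describes the animals as male, so sex differed among the libraries labelled knockout. Piezo1, summed over the chondrocyte-like and hypertrophic chondrocyte-like (HTC-like) cells, was at 67.9, 42.9 and 51.6 UPM in the controls and 137, 52.6 and 47.2 UPM in the libraries labelled knockout, which did not lie below the controls. The 3′ counts need not cover the deleted part of the gene. In these counts, the direction of every genotype comparison therefore rests on the labels. The paper itself reports that immunofluorescence staining of calluses verified the deletion. It also reports lower Piezo1 in one of its HTC clusters by single-cell sequencing.

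Cells were grouped into classes by marker genes, with the 51 genes left out of the clustering. A class is called osteoblast-like, for example, after its markers, and 32 classes and unnamed clusters with 34909 cells were described. UPM below is the number of UMIs of a gene scaled to a total of 1000000 UMIs of one class in one library, so it compares one gene between classes and not genes with each other. Classes with at least 10 cells in at least 5 libraries were ranked. Tendon-like, dendritic-like and HTC-like cells had a level in only 5 libraries, as did the endothelial clusters marked by Kcne3 and Kit and by Rnase4. Leads in these are counted out of 5.

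The 51 genes gave 421884 UMIs in all. Plxnd1 held the most with 50220, followed by Plxnb2 with 48811, whereas 14 genes had fewer than 1000 UMIs in all cells. Of these, 6 were Eph receptors of class A, with 14 UMIs for Epha10, 278 for Epha5 and none for Epha6. Of the 51 genes, 17 were highest in an endothelial class or cluster, 8 of them in at least 5 libraries. How many of all genes were highest there was not counted, so no endothelial lean of the family can be read from this. In all, 18 of the 51 genes reached their highest level in the same class in at least 5 libraries. The summed level of the 20 semaphorins was highest in arterial-like cells, with a median of 1516 UPM (986 to 1632), as was that of the 8 ephrins, at 1152 UPM (938 to 1472). Efnb2 and Efna1, at medians of 659 and 437 UPM, held most of that ephrin sum. Sema3g, at 633 UPM, held a large part of the semaphorin sum. The 9 plexins led in an unnamed endothelial cluster marked by Kcne3 and Kit, at 1112 UPM (712 to 1240). Plxnd1, at a median of 882 UPM, held most of that plexin sum. The 14 Eph receptors led in periosteal-like cells, at 325 UPM (267 to 486), and were lowest in monocyte-like cells, at 12.6 UPM. Epha3, at a median of 182 UPM, held a large part of the sum in periosteal-like cells.

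**Figure D1:**
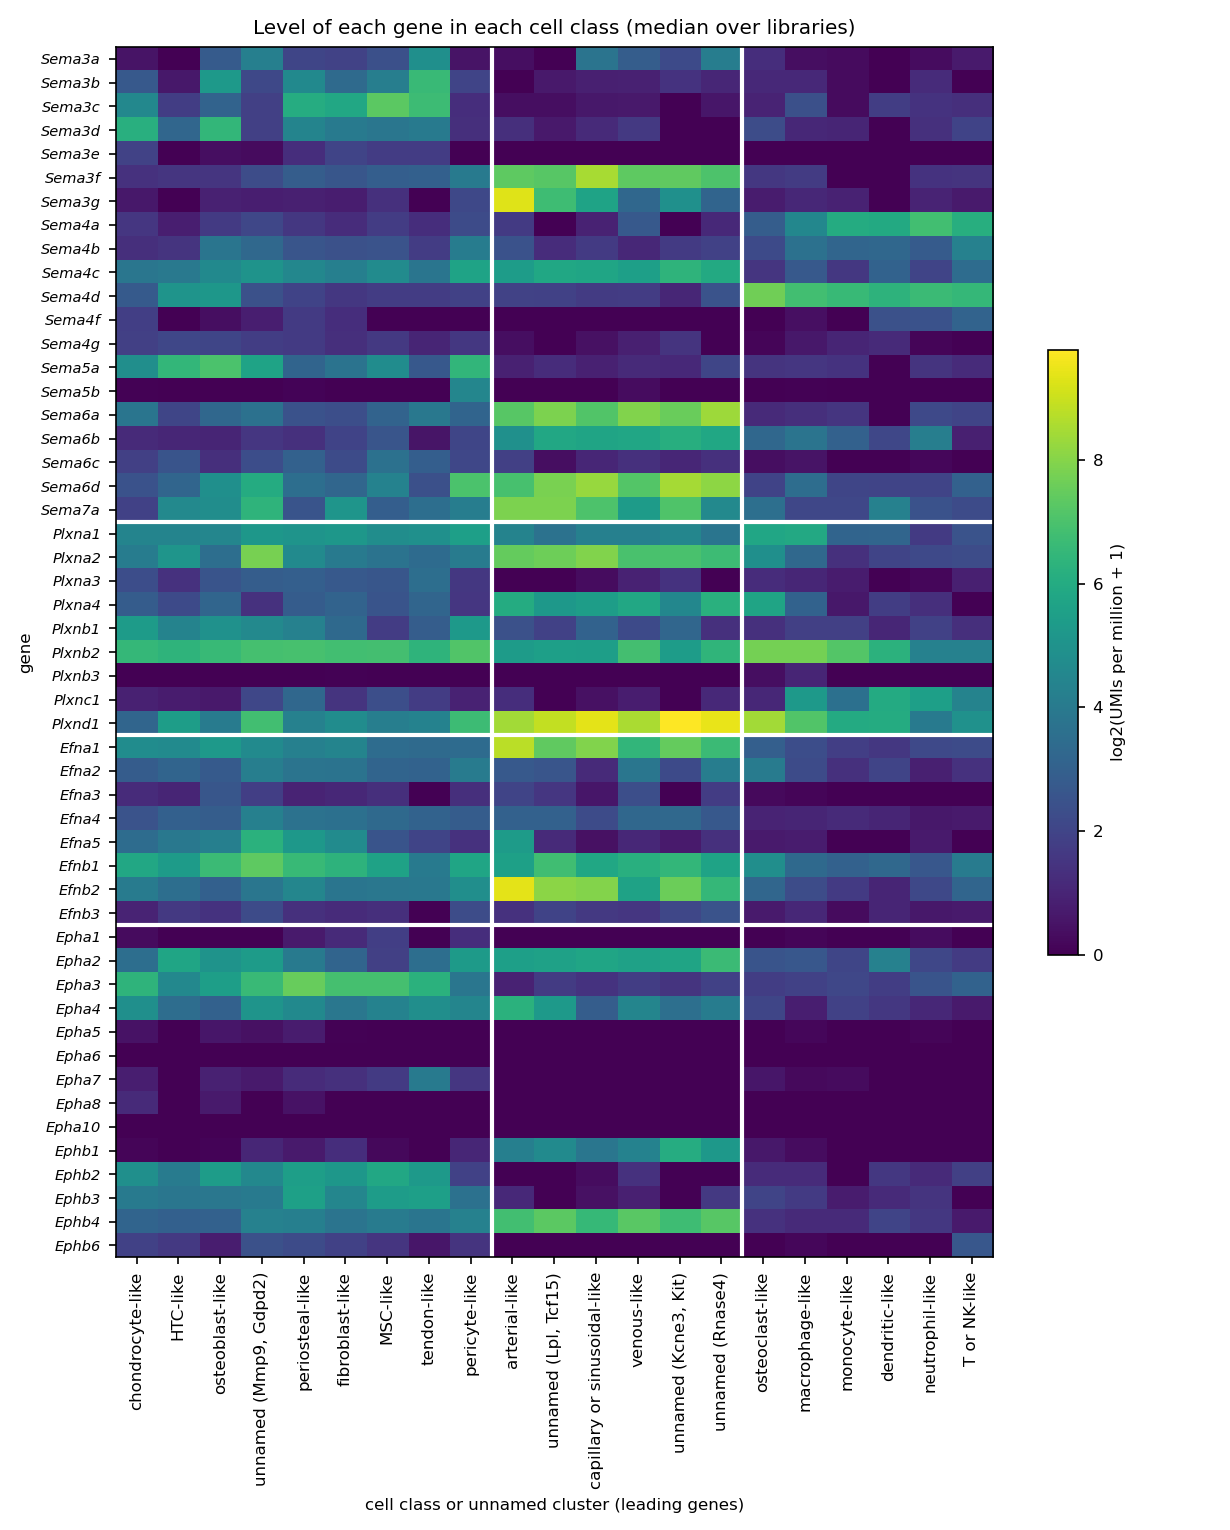
Heat map of the median level over libraries (colour from dark to bright, log2 of UPM + 1) of each of the 51 genes (rows, semaphorins, plexins, ephrins and Eph receptors from top to bottom) in the main cell classes and unnamed clusters (columns, stromal, endothelial and blood cells from left to right). Bright cells mark Sema3g and Efnb2 in the arterial-like column (633 and 659 UPM) and Plxnd1 across the endothelial columns, and the rows of Epha6 and Epha10 stay dark.

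Among the secreted semaphorins, some led in vessel cells and others in skeletal cells. Sema3g, an endothelial semaphorin, had a median of 633 UPM in arterial-like cells and was highest there in 6 of 6 libraries; the next class, an unnamed endothelial cluster marked by Lpl and Tcf15, was at 107 UPM, a ratio of 5.90. Sema3f, a ligand of Nrp2, was highest in capillary-like or sinusoidal-like cells in all 6 libraries, at 361 UPM (276 to 415), against 171 UPM in the next cluster. Sema3d, in contrast, was highest in osteoblast-like cells in 5 libraries, at 88.4 UPM (37.7 to 127), and chondrocyte-like cells followed at 71.1 UPM. Sema3c was highest in MSC-like cells in 3 libraries, at 159 UPM, but its range of 58.6 to 411 UPM overlapped that of tendon-like cells, 76.6 to 335 UPM. Sema3a, which protects bone through Nrp1, was highest in tendon-like cells in 3 libraries, at 28.1 UPM (19.0 to 45.9). Sema3e, a ligand that binds Plxnd1 directly, was low throughout, at most 3.04 UPM in fibroblast-like cells with a range of 0.857 to 12.9 UPM.

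The membrane-bound semaphorins had leading classes in the blood, bone and vessel walls. Sema4d, a ligand of Plxnb1, was highest in osteoclast-like cells in 6 of 6 libraries, at 204 UPM, and macrophage-like cells followed at 112 UPM. Sema4a, known from immune cells, was highest in neutrophil-like cells in 5 libraries, at 113 UPM (46.2 to 123). Of the 439 UMIs of Sema5b, 390 were in pericyte-like cells, where its level was 21.5 UPM (14.3 to 43.2), and the next class was at 0.248 UPM. Sema5a was highest in osteoblast-like cells in 5 libraries, at 127 UPM, ahead of HTC-like cells at 88.5 UPM. Sema6a led in an unnamed endothelial cluster marked by Rnase4 in 5 libraries, at 326 UPM, and Sema6c, with 1329 UMIs in all, led in MSC-like cells in 6, at 11.5 UPM (8.48 to 17.0). Sema6d, a ligand of Plxna1, and Sema7a, a lipid-anchored ligand of Plxnc1, had no steady leader. Sema6d was highest in the cluster marked by Kcne3 and Kit in 2 libraries, at 349 UPM, with 312 UPM in capillary-like or sinusoidal-like cells. Sema7a was at 231 UPM in arterial-like cells and 229 UPM in the cluster marked by Lpl and Tcf15.

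Of the plexins, Plxnd1, a vascular semaphorin receptor, was highest in the cluster marked by Kcne3 and Kit in 5 libraries, at 882 UPM (545 to 965). Other endothelial classes and clusters followed at 707, 670 and 483 UPM, and its medians in arterial-like and venous-like cells were lower. Plxna2, a receptor for class 6 semaphorins, was led by capillary-like or sinusoidal-like cells in 2 libraries only, at 243 UPM, with an unnamed stromal cluster marked by Mmp9 and Gdpd2 at 220 UPM. Plxna1, which pairs with Trem2 and Tyrobp (DAP12) in myeloid cells, was highest in macrophage-like cells in 5 libraries, at 59.5 UPM (50.8 to 79.5), but osteoclast-like cells were close, at 53.9 UPM (32.2 to 64.4). Plxnb2 was likewise close in both myeloid classes, with 215 UPM in osteoclast-like and 210 UPM in macrophage-like cells. Plxnc1 was highest in dendritic-like cells in 4 libraries, at 61.5 UPM (42.1 to 87.6). Plxnb1 was highest in chondrocyte-like cells in 4 libraries, at 40.0 UPM (26.8 to 63.2), and the ranges of pericyte-like and osteoblast-like cells overlapped it, at 27.3 to 47.9 and 28.1 to 36.5 UPM.

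Among ephrins and Eph receptors, some led in vessel cells and others in stromal cells. Efnb2, the arterial ephrin, had 659 UPM in arterial-like cells and was highest there in all 6 libraries, with 270 UPM in the next class. Efna1, an ephrin of endothelium, was also highest in arterial-like cells in all 6, at 437 UPM, against 241 UPM in capillary-like or sinusoidal-like cells. Epha4, a receptor of both ephrin classes, was likewise highest in arterial-like cells in all 6, at 75.8 UPM against 38.6 UPM in the next class. Efnb1, which is needed for skull and skeletal patterning, was instead highest in the stromal cluster marked by Mmp9 and Gdpd2 in 4 libraries, at 162 UPM (106 to 207). Ephb4, the receptor of Efnb2, had no single leader, at 161 UPM in the cluster marked by Lpl and Tcf15 and 154 UPM in venous-like cells. Epha3 was highest in periosteal-like cells in 5 libraries, at 182 UPM (117 to 290), and Ephb2 in MSC-like cells in 5, at 57.1 UPM (38.5 to 82.9). Ephb1 led in the cluster marked by Kcne3 and Kit in 5 libraries, at 65.7 UPM (49.8 to 89.9), and Epha2, a receptor of Efna1, led in the cluster marked by Rnase4 in 3, at 99.6 UPM (40.8 to 154).

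The co-receptors had separate leaders too. Nrp2 was highest in osteoclast-like cells in all 6 libraries, at 1224 UPM, and osteoblast-like cells came next at 678 UPM. Nrp1 was highest in capillary-like or sinusoidal-like cells in 4 libraries, at 587 UPM. Trem2, a lipid receptor of myeloid cells, was highest in macrophage-like cells in all 6, at 511 UPM, and Tyrobp, its signalling adaptor, in neutrophil-like cells in 3, at 3679 UPM.

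To examine the osteoclast and osteoblast pair, the UMIs of 1590 osteoclast-like and 2384 osteoblast-like cells were summed per library and compared with the library as a block. The low-count filter, about 3.41 UPM, was met in both classes by 10 of the 51 genes. Of these, the ligand Sema4d and the plexins Plxnd1, Plxna4, Plxna2, Plxnb2 and Plxna1 were higher in osteoclast-like cells, Efna1, Efnb1 and Sema7a were lower, and Efnb2 did not pass the test. That is 6 higher and 3 lower, where 39.1% and 31.1% of the 7763 genes that met the filter in both classes were higher and lower, and the median log2 fold change of osteoclast-like over osteoblast-like cells was 0.85 over the 10 genes and 0.098 over the 7763. Another 15 genes, among them Plxnb1, Ephb4, Ephb2, Epha2, Epha3, Sema5a, Sema3b and Sema3d, met the filter in osteoblast-like cells alone, and Sema6b and Efna2 in osteoclast-like cells alone. These 17 entered the test only through the class where they were higher, so their values are given as a description and without a p. The remaining 4 tested genes, Sema4a, Epha4, Plxna3 and Sema3c, met the filter over both classes together. Over all 31 genes tested, 9 were higher and 21 lower, and 73.2% of all genes tested passed (37.6% higher, 35.6% lower). Classes were built from other genes of these same cells, so the p-values measure how repeatable a difference was over libraries. The other 20 of the 51 genes were too low to test. Without knockout library 3, 23 genes could be tested and 22 passed, a count not set against the share of all genes in that fit.

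Sema4d, on chr13:51685529-51793747, was at 202, 204 and 263 UPM in osteoclast-like cells of control libraries 1 to 3 and 226, 203 and 143 UPM in knockout libraries 1 to 3. In osteoblast-like cells the levels were 46.9, 43.4, 21.0, 33.7, 37.6 and 24.1 UPM in the same order. Every osteoclast-like value lay above every osteoblast-like one, and the log2 fold change (log2FC, osteoclast-like over osteoblast-like, here 2.32 with an SE of 0.17) had an adjusted p of 1.10e-07. Its receptor Plxnb1, on chr9:109095389-109119917, ran the other way, with 28.1 to 36.5 UPM in osteoblast-like cells and 4.36, 0, 1.09, 5.52, 1.25 and 1.82 UPM in osteoclast-like cells (log2FC -4.42). The 0, in control library 2, allows up to 1.49 UPM, counting 3 UMIs as the limit of a count of 0 and counting error alone. The groups did not overlap for either gene, but Plxnb1 met the filter in osteoblast-like cells alone, which favours this. The share of all genes without overlap between these classes was not counted.

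**Figure D2:**
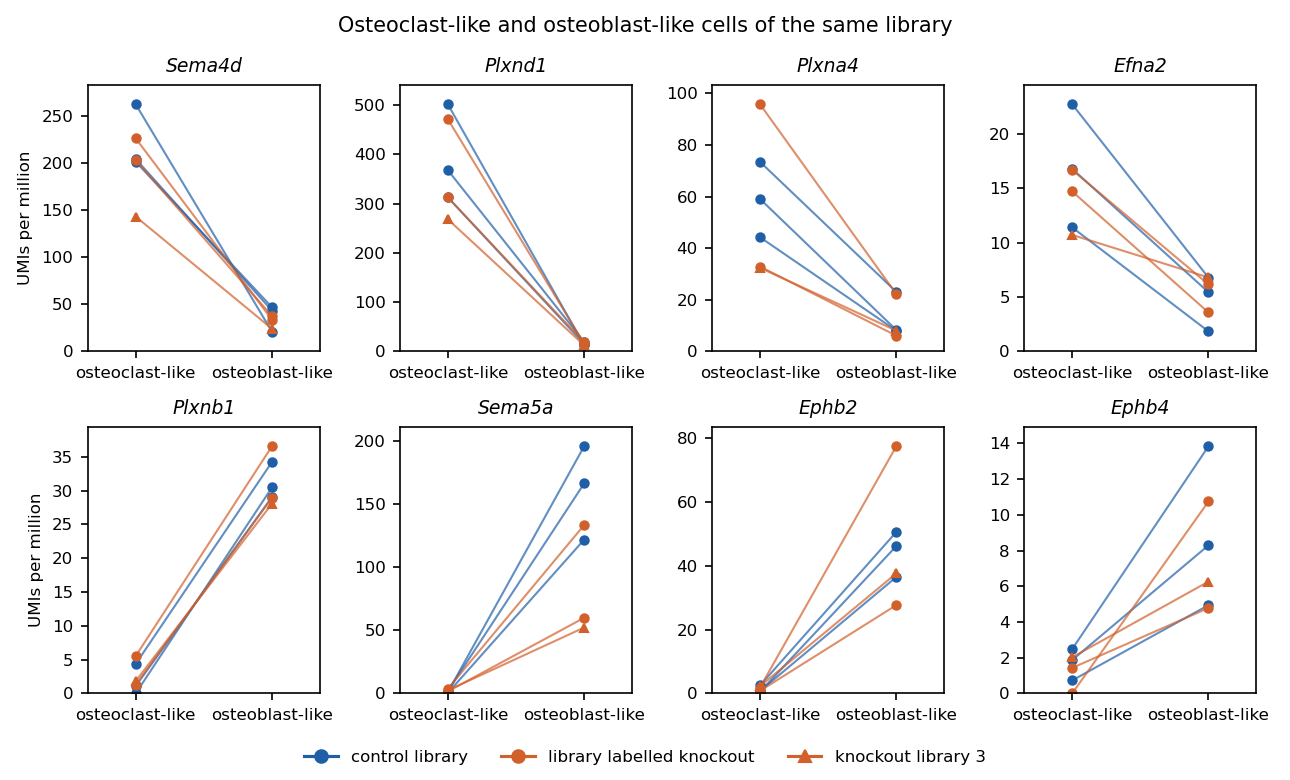
Level (vertical axis, UPM on a linear scale from 0, set for each gene) of 8 genes in osteoclast-like and osteoblast-like cells, with 1 point per library and lines joining the same library. In the upper row (Sema4d, Plxnd1, Plxna4, Efna2) every line falls from osteoclast-like to osteoblast-like cells, and in the lower row (Plxnb1, Sema5a, Ephb2, Ephb4) every line climbs.

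Of the ephrin-B pair, the ligand met the filter in both classes and the receptor in osteoblast-like cells alone. Efnb2 was at 7.47, 17.9, 9.46, 16.6, 6.70 and 4.65 UPM in osteoclast-like cells and 7.0, 7.38, 7.41, 7.17, 4.74 and 5.45 UPM in osteoblast-like cells. The groups overlapped, although osteoclast-like cells were higher in 5 of 6 libraries, and log2FC was 0.19 (SE 0.22, adjusted p = 0.432), which did not pass. Ephb4, on chr5:137350109-137378669, had 8.30, 13.8, 4.94, 10.7, 4.78 and 6.26 UPM in osteoblast-like cells and at most 2.48 UPM in osteoclast-like cells (log2FC -2.33), from 38 UMIs in osteoclast-like cells. Of the ligands and receptors of the A class, Efna2 was higher in osteoclast-like cells, at 15.7 UPM (10.7 to 22.7) against 5.80 UPM (1.85 to 6.81), with log2FC 1.19. Its receptor Epha2 was higher in osteoblast-like cells, at 31.4 UPM (18.0 to 52.6) against 4.82 UPM (1.84 to 6.95), with log2FC -2.84.

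Among the genes that met the filter in both classes, Plxnd1, Sema4d and Plxna4 had the largest differences toward osteoclast-like cells. Plxnd1 was at 502, 368, 313, 471, 313 and 268 UPM in osteoclast-like cells and 12.5 to 19.4 UPM in osteoblast-like cells (log2FC 4.27, SE 0.16, adjusted p = 8.41e-10). Plxna4 was at 51.6 UPM (32.4 to 95.7) against 8.17 UPM (6.07 to 23.1), which did not overlap (log2FC 1.92, SE 0.15). Plxna2 was higher in 5 of 6 libraries (log2FC 1.14), and Plxnb2 and Plxna1 differed less, with log2FC values of 0.90 and 0.80 (SE 0.12 each). Sema6b was at 8.65 UPM against 1.01 UPM, from 248 and 40 UMIs (log2FC 2.77). Sema4a, which was highest in neutrophil-like cells, had log2FC 1.31 (SE 0.32, adjusted p = 0.00272).

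Toward osteoblast-like cells, Efna1, Efnb1 and Sema7a met the filter in both classes and passed, with log2FC values of -2.65 (SE 0.15), -1.87 and -1.37. The largest fold changes were those of genes that met the filter in osteoblast-like cells alone, Sema5a, Sema3b and Ephb2. Sema5a was at 166, 196 and 122 UPM in the controls and 133, 59.9 and 52.2 UPM in the libraries labelled knockout, and at no more than 3.68 UPM in osteoclast-like cells (log2FC -6.11). Sema3b was at 37.2 UPM (21.2 to 56.3) against 1.17 UPM (log2FC -5.39), and Ephb2 at 41.9 UPM (27.6 to 77.4) against 1.32 UPM (0.496 to 2.49, log2FC -5.13). Efna3 and Epha3 followed, with log2FC values of -4.54 and -4.39, though Efna3 had 7 UMIs in osteoclast-like cells. Sema3d was at 88.4 UPM against 3.78 UPM (log2FC -4.17). Sema6d, the ligand of Plxna1, was at 2.87 UPM in osteoclast-like and 28.0 UPM in osteoblast-like cells (log2FC -3.54). Sema3a had 40 UMIs in osteoclast-like and 120 in osteoblast-like cells, at 1.41 and 6.07 UPM, and was not tested.

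**Figure D3:**
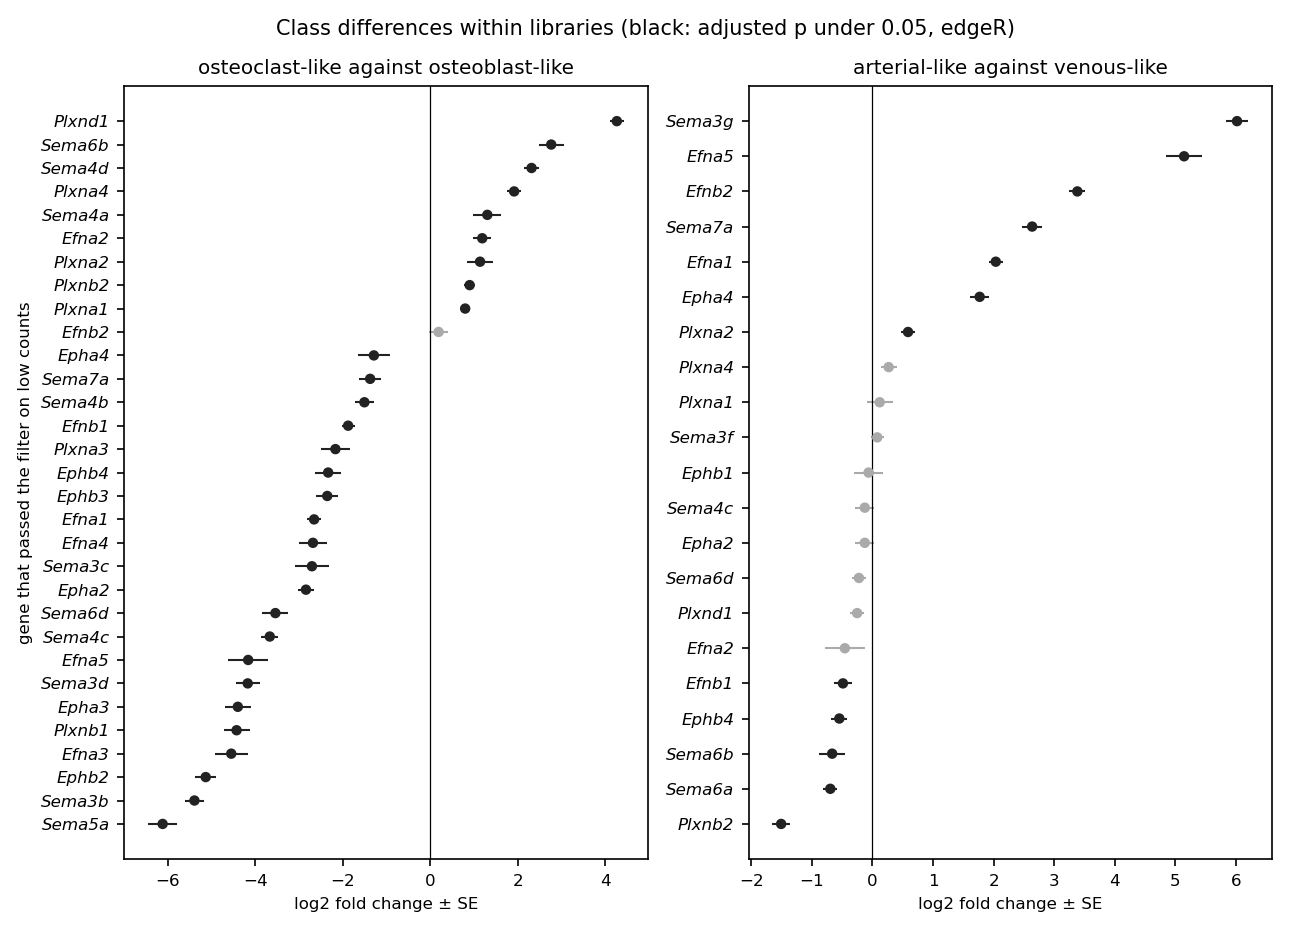
Log2 fold change (horizontal axis, points, with the SE as bars) of each gene tested in osteoclast-like against osteoblast-like cells (left) and in arterial-like against venous-like cells (right), with genes that passed the test in black, also where they met the filter in 1 class alone, and the others in grey. Plxnd1 (4.27) and Sema5a (-6.11) mark the ends of the left panel, and Sema3g (6.02) and Plxnb2 (-1.51) those of the right panel. For genes that met the filter in 1 class alone, among them Sema5a and Sema3g, position and colour are a description only.

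Of the 52 other genes of these pathways, 43 were tested, and 17 were higher and 19 lower in osteoclast-like cells. The filter was met in both classes by 28 of them, of which 11 were higher and 11 lower (39.3% each). Of the 7763 genes that met it in both classes, 39.1% were higher and 31.1% lower. Another 6 of the pathway genes met it in osteoclast-like cells alone, and all 6 were higher. A further 8 met it in osteoblast-like cells alone, and all 8 were lower. These entered the test only through the class where they were higher. The fold changes of Tyrobp, Trem2, Src, Met and Farp2 are therefore given as a description and without a p. Tyrobp and Trem2 were higher, with log2FC values of 5.71 and 3.69, as were Src (2.87), a tyrosine kinase that osteoclasts need to resorb, and Met (5.05), a growth factor receptor that plexins of the B class can bind. Nrp2 was at 1224 UPM against 678 UPM (log2FC 0.62, SE 0.14, adjusted p = 0.00186), and Nrp1 at 14.3 UPM against 32.0 UPM (log2FC -1.40, SE 0.21, adjusted p = 6.69e-05). Farp2, an exchange factor in Sema3a signalling, was lower (log2FC -4.32). Of the markers that named the classes, Acp5 was at 6606 to 13633 UPM in osteoclast-like and 14.8 to 217 UPM in osteoblast-like cells, and Ifitm5 at 529 to 1196 UPM in osteoblast-like and 1.82 to 25.6 UPM in osteoclast-like cells. Markers of other cells also differed. In all, 11 of the 25 lists did not overlap between the classes, the osteoclast and osteoblast lists themselves among them. The macrophage list summed to 1574 to 2167 UPM in osteoclast-like and 66.4 to 188 UPM in osteoblast-like cells, and the chondrocyte list to 157 to 3916 and 5286 to 14251 UPM. Their part in the differences was not tested.

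To examine the arterial and venous pair, 471 arterial-like and 1814 venous-like cells were compared in the same way. The venous-like class joined a cluster of 1046 cells with 8 venous markers found and another of 768 cells with 3. Efnb2, Sema3g, Efna5, Sema7a, Efna1, Epha4 and Plxna2 were higher in arterial-like cells, and Plxnb2, Sema6a, Sema6b, Ephb4 and Efnb1 were lower. Efnb2 differed strongly, with medians of 659 and 49.3 UPM, and Ephb4 only modestly, with medians of 112 and 154 UPM. Of the 21 genes tested, 7 were higher and 5 lower, and 25.7% of all genes tested passed (13.3% higher, 12.4% lower). The filter, about 9.56 UPM, was met in both classes by 15 of them, of which 5 were higher and 4 lower, against 14% and 11.7% of the 6515 genes that met it in both classes. The median log2 fold change of arterial-like over venous-like cells was -0.13 over the 15 genes and 0.0067 over the 6515. Sema3g, Efna5 and Plxna1 met the filter in arterial-like cells alone and Sema6b and Ephb1 in venous-like cells alone, which favours a difference toward that class, so the values of Sema3g, Efna5 and Sema6b are a description. Efna2 met it over both classes together, and 30 of the 51 genes were not tested. Without the library block, 7 passed (6 higher, 1 lower), and Efnb1, Ephb4, Plxna2, Sema6a and Sema6b did not. Without knockout library 3, 12 of 22 genes passed. Neither count is set against the share of all genes in its own fit.

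Efnb2, on chr8:8617434-8661242, was at 681, 636, 815, 859, 568 and 441 UPM in arterial-like cells and 46.2, 66.2, 122, 48.6, 50.02 and 46.9 UPM in venous-like cells, in the order of control libraries 1 to 3 and knockout libraries 1 to 3. The groups did not overlap (log2FC, here arterial-like over venous-like, 3.38, SE 0.13, adjusted p = 2.13e-14). Ephb4 was at 93.8, 135, 76.3, 157, 130 and 75.2 UPM in arterial-like cells and 153, 203, 180, 133, 154 and 129 UPM in venous-like cells. The ranges overlapped, knockout library 1 ran the other way, and log2FC was -0.55 (SE 0.13, adjusted p = 0.00281). Knockout library 1 had only 12 arterial-like cells, in which 1 UMI is worth 3.49 UPM.

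**Figure D4:**
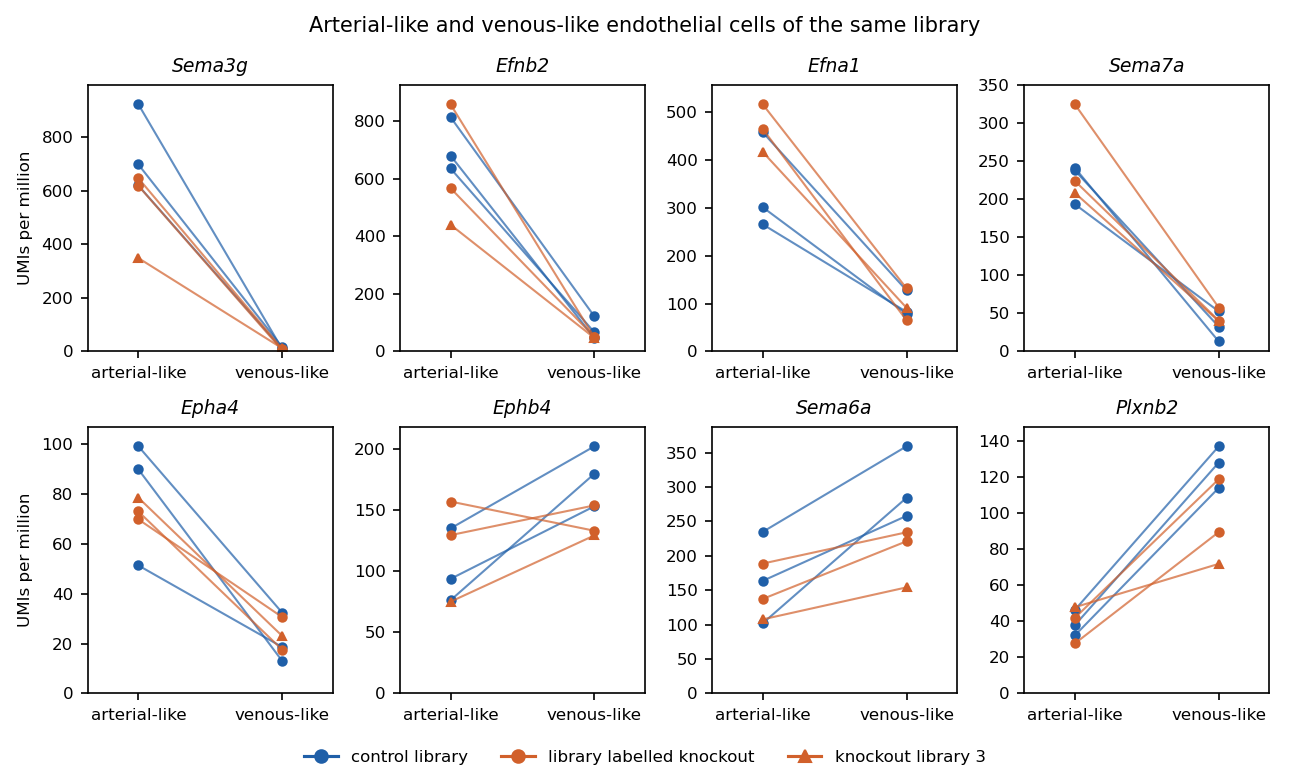
Level (vertical axis, UPM on a linear scale from 0, set for each gene) of 8 genes in arterial-like and venous-like cells, with 1 point per library and lines joining the same library. The lines of Sema3g, Efnb2, Efna1, Sema7a and Epha4 all fall toward venous-like cells, those of Sema6a and Plxnb2 all climb, and those of Ephb4 climb in 5 of 6 libraries.

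Sema3g, on chr14:31217860-31230352, had the largest fold change, having entered the test through arterial-like cells alone. It was at 922, 619, 698, 646, 618 and 348 UPM in arterial-like cells and 4.50 to 15.6 UPM in venous-like cells (log2FC 6.02). Efna5 was at 22.2 to 91.2 UPM against 0.794 to 5.40 UPM (log2FC 5.14), with 19 UMIs in venous-like cells. Sema7a was at 231 UPM (194 to 325) against 40.1 UPM (13.1 to 57.6), with log2FC 2.64 (SE 0.16). Efna1 was at 437 UPM (265 to 516) against 86.7 UPM (64.8 to 132), and its receptor Epha4 at 75.8 UPM (51.4 to 99.2) against 20.8 UPM (12.998 to 32.4), with log2FC values of 2.04 (SE 0.11) and 1.77 (SE 0.16). None of these 5 genes overlapped between the classes. They were picked for the largest changes, and the share of all genes without overlap between these classes was not counted.

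Plxnb2 was the gene most in favour of venous-like cells, at 116 UPM (71.9 to 137) against 39.9 UPM (27.7 to 47.8), with log2FC -1.51 (SE 0.14, adjusted p = 3.03e-08). Sema6a was lower in arterial-like cells in 6 of 6 libraries (log2FC -0.69, SE 0.12). Efnb1 was close to the threshold, with log2FC -0.49 (adjusted p = 0.0177). It did not pass without control library 1 (log2FC -0.41, adjusted p = 0.0584), at a clustering resolution of 0.4 or without integration, and its direction turned at a resolution of 1.2 (0.15). Sema6b had log2FC -0.66 and no longer passed without control library 1, control library 3 or knockout library 2. Plxna2, higher in arterial-like cells in 5 of 6 libraries, had log2FC 0.59 (SE 0.11). Plxnd1 was at 327, 278, 390, 286, 353 and 352 UPM in arterial-like and 293, 316, 517, 421, 573 and 310 UPM in venous-like cells and did not pass (log2FC -0.25, adjusted p = 0.114). The sign of Plxnd1 turned at a resolution of 0.4 (0.14) and without integration (0.030), and it passed without control library 1 (-0.33, adjusted p = 0.0498) and without the filter on low counts (-0.30, adjusted p = 0.0291). Sema3f (log2FC 0.08), Epha2 (-0.13) and Plxna1 (0.12) did not pass, and the sign of each turned under 1 alternative. Sema6d had log2FC -0.22 and did not pass, but was higher and passed at a resolution of 0.4 (0.41, adjusted p = 0.0186) and without integration (0.59, adjusted p = 0.0224), and was lower and passed without knockout library 1 (-0.30, adjusted p = 0.0497).

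Of the other pathway genes, 35 were tested, and 10 were higher and 4 lower in arterial-like cells. Among the 30 that met the filter in both classes, 9 (30%) were higher and 4 (13.3%) lower. The shares were 14% and 11.7% of the 6515 genes that met it in both classes. The neuropilins went in opposite directions: Nrp1 was at 363 UPM against 232 UPM (log2FC 0.70, SE 0.10, adjusted p = 9.05e-06), and Nrp2 at 57.3 UPM against 476 UPM (log2FC -2.82, SE 0.14, adjusted p = 7.20e-13). Of the markers that named the classes, Gja5, an arterial connexin, was at 327 to 715 UPM in arterial-like and at most 2.23 UPM in venous-like cells, and Selp, a venular selectin, at 322 to 1656 UPM in venous-like and at most 14.6 UPM in arterial-like cells. Beside the arterial and venous lists themselves, 2 of the 25 lists did not overlap. The marrow stromal list summed to 1581 to 2902 UPM in arterial-like and 370 to 803 UPM in venous-like cells, and the MSC list to 2410 to 4018 and 1435 to 2041 UPM. The pericyte list, at 356 to 1152 and 470 to 782 UPM, overlapped. Their part in the differences was not tested.

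The study asks what deleting Piezo1 in cells that express Col2a1 does to the callus. In each of 8 classes, the 3 libraries labelled knockout were compared with the 3 controls. None of the 51 genes passed in any class, with or without knockout library 3. With edgeR, 0 of the 8765 to 14560 genes tested per class passed (0.0% called), 176 to 722 had an unadjusted p under 0.05, and DESeq2 called 0 of the 51 genes and 0 to 4 genes in all. Of 211 tests of the 51 genes, 17 (8.06%) had an unadjusted p under 0.05, against 3.33% of the 92183 tests of all genes, and in 22 (10.4%) the groups did not overlap, against 7.79%. These 211 tests take the same genes again in 8 classes of the same libraries, so they are not independent. No excess for the family can be read from these shares. None of the 52 other pathway genes passed in any class either. What follows gives values, none of which passed the test, and a p that misses the threshold does not show that a level did not differ.

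In chondrocyte-like and HTC-like cells, the class in which Piezo1 was to be deleted, Sema3c had the smallest p. It was at 22.3, 22.3 and 46.5 UPM in the controls and 20.4, 8.95 and 10.25 UPM in the libraries labelled knockout (log2FC -1.09, SE 0.40, edgeR adjusted p = 1.00). In 8 of the 41 genes tested there, the groups did not overlap, against 6.92% of all genes tested in either direction. The share of all genes for each direction was not counted. All 8 genes were lower in the libraries labelled knockout. Among them Ephb2 was at 32.7 ± 4.14 UPM (SD, n = 3) in the controls and 21.4 ± 2.85 UPM (SD, n = 3), and Plxna1 at 23.6 ± 4.02 and 17.6 ± 1.25 UPM. Other markers moved with the label: the periosteal list summed to 1239 to 3398 UPM in the controls and 213 to 1000 UPM in the libraries labelled knockout, the macrophage list to 50.3 to 91.1 and 109 to 229 UPM, and the B cell list to 99.2 to 132 and 60.4 to 93.1 UPM. The mixture of cells also differed among libraries. The controls had 502, 537 and 520 chondrocyte-like and 94, 9 and 16 HTC-like cells. The libraries labelled knockout had 294, 22 and 1300 chondrocyte-like and 44, 24 and 416 HTC-like cells. Chondrocyte-marked clusters of few UMIs, left out here, held 1821, 173 and 353 cells in the controls and 1354, 814 and 675 in the libraries labelled knockout. The osteoblast list of knockout library 2 summed to 47432 UPM against 3802 to 20313 UPM elsewhere. Sema7a reached 49.2 UPM in knockout library 2 and at most 6.86 UPM elsewhere. The part of the mixture of cells, of the cells left out and of the marker lists in the gene values was not tested.

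In fibroblast-like cells Sema3c was at 124, 114 and 61.2 UPM in the controls and 28.9, 54.8 and 18.0 UPM in the libraries labelled knockout, which did not overlap (log2FC -1.51, SE 0.42, edgeR adjusted p = 0.999). Sema5a was at 8.72 ± 1.64 UPM and 18.6 ± 6.92 UPM (SD, n = 3 each) in the same order, and the groups did not overlap in 6 of the 25 genes tested (5.25% of all genes tested). The osteoblast list was at 581 to 925 UPM in the controls and 2511 to 3687 UPM in the libraries labelled knockout, the tendon list at 1334 to 1941 and 310 to 1251 UPM, and the HTC, periosteal and macrophage lists did not overlap either. Of the 1127 cells, 735 came from control library 3. Their part was not tested. In osteoblast-like cells Sema6a was at 12.2, 17.5 and 13.6 UPM in the controls and 4.30, 1.98 and 4.90 UPM in the libraries labelled knockout, from 173 UMIs (log2FC -1.92, SE 0.40, edgeR adjusted p = 0.936). It was the only one of 31 genes whose groups did not overlap, against 8.68% of all genes tested. In these cells the macrophage list summed to 66.4 to 125 UPM in the controls and 147 to 188 UPM in the libraries labelled knockout, the venous list to 46.1 to 59.1 and 34.7 to 40.1 UPM, and the mast cell or basophil list to at most 3.69 UPM, without overlap. Their part was not tested. Sema5a, which was highest in osteoblast-like cells among the classes, had a mean of 161 ± 37.2 UPM and 81.8 ± 44.8 UPM (SD, n = 3 each), and the groups overlapped.

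**Figure D5:**
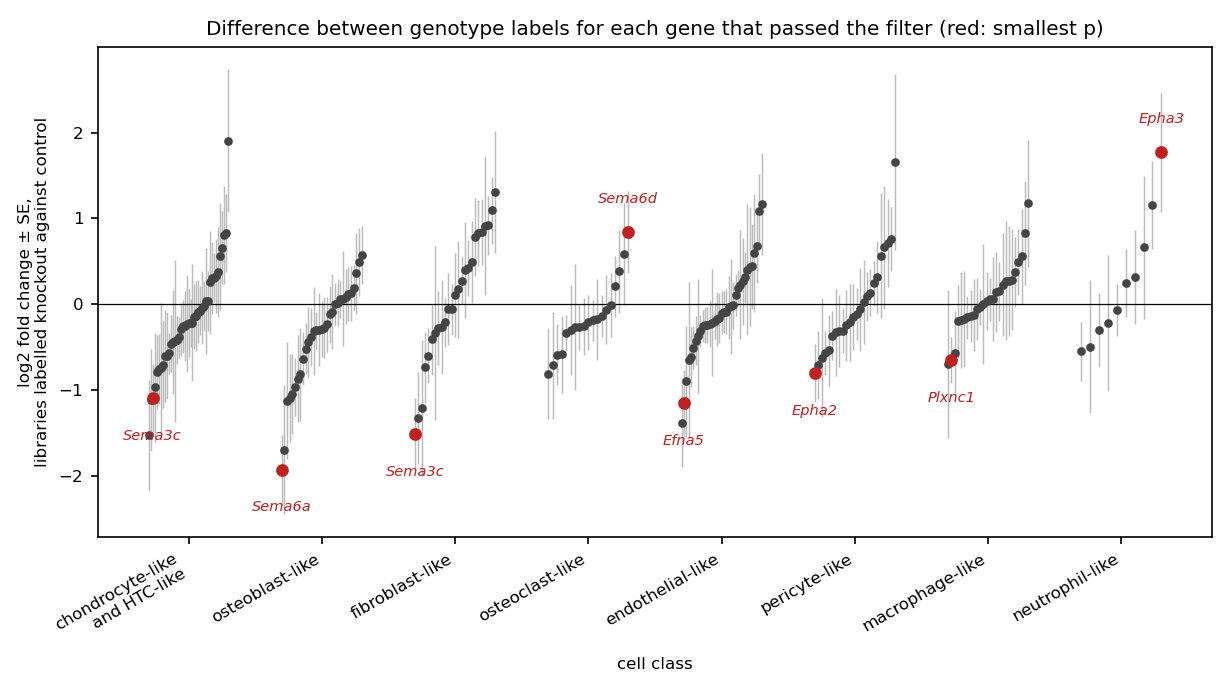
Log2 fold change of the libraries labelled knockout against the controls (vertical axis, with the SE as bars) for each gene tested in each of the 8 classes (horizontal axis), with 1 point per gene and the gene of the smallest p in red. The points lie on both sides of 0 in each class, their medians run from -0.28 (osteoblast-like) to 0.11 (fibroblast-like), and no point passed the test.

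In endothelial-like cells the groups did not overlap in 5 of 35 genes, against 10.9% of all genes tested. Efna5 had the smallest p, at 11.2, 7.22 and 8.06 UPM and 6.74, 3.31 and 2.47 UPM (log2FC -1.15, SE 0.39, edgeR adjusted p = 0.802). Sema6a was at 202, 290 and 234 UPM in the controls and 195, 194 and 114 UPM in the libraries labelled knockout, where knockout library 1 lay just below the lowest control. Efnb2 was at 190 ± 9.39 and 160 ± 67.0 UPM, and Ephb4 at 148 ± 22.1 and 122 ± 25.03 UPM (SD, n = 3 each), with overlapping groups. The B cell list (288 to 425 against 210 to 284 UPM), the list of blood stem and progenitor cells (843 to 900 against 732 to 807 UPM) and the Schwann cell list (17.1 to 19.0 against 20.2 to 29.1 UPM) did not overlap between controls and libraries labelled knockout, and their part was not tested. In pericyte-like cells Epha2 was at 35.6, 59.3 and 57.5 UPM and 43.0, 20.3 and 23.6 UPM (log2FC -0.80, SE 0.34, edgeR adjusted p = 0.935). Efnb2 and Ephb3 were the 2 of 24 genes without overlap there (9.31% of all genes tested), and Efnb2 was at 38.3 ± 8.39 and 25.02 ± 0.854 UPM (SD, n = 3 each). The periosteal list summed to 1345 to 1843 UPM in the controls and 937 to 1222 UPM in the libraries labelled knockout, the muscle list to 17.4 to 24.7 and 1.84 to 13.2 UPM, and the mast cell or basophil list to 4.48 to 5.21 and 5.53 to 7.17 UPM. Their part was not tested.

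In the 3 blood-lineage classes tested, the groups overlapped for each of the 51 genes that was tested. In osteoclast-like cells none of 19 genes was free of overlap, against 8.19% of all genes, and Sema4d was at 223 ± 34.4 and 191 ± 42.9 UPM (SD, n = 3 each). The osteoblast list summed to 57.6 to 509 UPM there in the controls and 538 to 666 UPM in the libraries labelled knockout, and the pericyte list to 91.7 to 144 and 47.1 to 71.0 UPM. Sema6d had the smallest p there, at 3.11, 2.48 and 1.64 UPM and 3.68, 4.65 and 2.63 UPM (log2FC 0.85, SE 0.48, edgeR adjusted p = 0.989). In macrophage-like cells Plxnc1 was at 62.2, 52.7 and 34.3 UPM and 43.1, 23.5 and 28.1 UPM (log2FC -0.65, SE 0.27, edgeR adjusted p = 0.999), with no gene of 26 free of overlap (4.67% of all genes), and the pericyte list was at 98.4 to 148 and 61.3 to 97.8 UPM. The part of these lists was not tested. In neutrophil-like cells the same held for 10 genes (8.18% of all genes), and Epha3, with 46 UMIs, had the smallest p, at 6.42, 1.06 and 1.59 UPM and 7.03, 3.34 and 6.48 UPM (log2FC 1.77, SE 0.69, edgeR adjusted p = 1.00). In control library 1, 1 UMI was worth 3.21 UPM in these cells. Their chondrocyte list summed to 6572, 1995 and 1130 UPM in the controls and 6881, 198 and 6604 UPM in the libraries labelled knockout. Its part was not tested.

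Whether the cell-type differences themselves varied with the label was tested by an interaction term. For osteoclast-like against osteoblast-like cells 0 of 11026 genes passed and 600 (5.44%) had an unadjusted p under 0.05, among them 6 of the 31 members of the family tested (19.4%). The smallest p was that of Sema5a, with a log2 difference of 2.65, which did not pass. Of these 6, Sema5a, Sema6d, Efna5 and Epha3 met the filter in osteoblast-like cells alone and were near the floor in osteoclast-like cells. Their values are a description, and no excess for the family can be read from the 19.4%. For arterial-like against venous-like cells 1 of 8954 genes passed, none of them among the 51, and 482 (5.38%) had an unadjusted p under 0.05, among them 1 of the 21 members tested (4.76%).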

How the data were processed

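Single-cell 3′ libraries of calluses at 14 dpf, each from 1 mouse per the labels, were analysed for 3 mice of each genotype label. The methods of the paper also give 3 mice per genotype, but its results text gives larger numbers for this experiment. The authors counted UMIs with Cell Ranger, 6.1.1 for replicate 1 of both groups and 6.1.2 for the others, against GRCm38, and deposited raw UMI counts of filtered barcodes. Seurat also stands in the submitters' processing notes. Genes were joined by identifier, and the genes listed in all 6 libraries account for 97.8% of UMIs or more in each. No exon of the 51 genes overlaps another protein-coding gene on the same strand in GENCODE M21.

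Of 46944 barcodes, those below 500 UMIs or 200 genes or above 20% mitochondrial UMIs were dropped. Scrublet (scanpy 1.11.5, Python 3.11.15) scored doublets, and the top scores, 0.8% of a library per 1000 cells, were removed (3074 cells). Cells were integrated by RPCA in Seurat 5.3.0 on 2000 variable genes and 30 components, and clustered with leidenalg 0.10.2 at a resolution of 0.8, with stromal and endothelial cells clustered again. A cluster was named where at least 3 markers were found in at least 25% of its cells at 2 times the median cluster, and clusters led by another lineage or with few UMIs stayed unnamed. Left out were 6954 cells, 5190 of them in chondrocyte-marked clusters of few UMIs. The thresholds for names were fixed only once the data had been seen, blind to the genotype labels.

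UMIs were summed per library and class with at least 10 cells, and tested with edgeR 4.0.16 in R 4.3.3 (two-sided quasi-likelihood F test after filterByExpr and TMM scaling, with p-values adjusted by Benjamini-Hochberg over all genes tested and a threshold of 0.05), with the library as a block between classes of the same mice. The SE is the log2 fold change divided by the square root of F. The scripts were tested on simulated data. Depth limits the lowest values, since 1 UMI was worth up to 3.49 UPM in arterial-like cells, and intervals and limits cover counting error only.

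The genes and lists were chosen with earlier results of these data known. Named by rule were 22 genes with roles in bone or vessels, up to 6 genes with the largest changes in each direction, the gene with the smallest p in each genotype comparison, the up to 3 leading genes of each class, and Nrp1, Nrp2, Trem2 and Tyrobp. Other genes were named after their values were seen. Alternatives were stricter cell filters, clustering at 0.4 or 1.2, unintegrated components, leaving out each library, other blocks, no filter on low counts, and DESeq2 1.42.0.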

Additional observations from a re-analysis of the deposited data

Results flagged for a closer look

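Sema3f, the semaphorin highest in capillary-like or sinusoidal-like cells, was the 1 result set apart, because its difference between arterial-like and venous-like cells had one sign in every control library and the other in every library labelled knockout. In control libraries 1 to 3, Sema3f was at 147, 156 and 191 UPM in arterial-like cells and 164, 189 and 200 UPM in venous-like cells. In knockout libraries 1 to 3 the levels were 259, 144 and 171 UPM in arterial-like and 158, 123 and 142 UPM in venous-like cells. The difference between the labels was 0.49 on the log2 scale (SE 0.20, edgeR interaction test, adjusted p = 0.910), which did not pass over the 8954 genes tested. Groups of 3 libraries are too small for a test of single outlying libraries, and none was made.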

How the results depend on the processing

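Of the 24 genes named for osteoclast-like against osteoblast-like cells, all 316 values under the alternatives kept their direction and their side of the threshold. Some of these genes were named for having the largest changes. Several met the filter in osteoclast-like or osteoblast-like cells alone. Both favour values that stay the same, so the 316 values do not measure how stable the results of the whole family are. The count of genes called ranged from 22 to 30 with each library left out, and was lowest without knockout library 3 or knockout library 2 (23), where only 23 and 24 genes passed the filter. It was 30 without the library block. The counts for either pair are not set against the share of all genes in the same fit.

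The 18 genes named for arterial-like against venous-like cells were likewise chosen in part for the largest changes. Of their values, 225 were the same, and the count of genes called ranged from 11 to 13 with each library left out. It fell to 7 without the block, where Efnb1, Ephb4, Plxna2, Sema6a and Sema6b no longer passed. The direction turned for Efnb1 at a resolution of 1.2 (0.15), Epha2 without control library 2 (0.020, with a range of -0.25 to 0.020 over the libraries left out), Plxna1 at 0.4 (-0.029), Sema3f without knockout library 1 (-0.018, range -0.018 to 0.17), Plxnd1 at 0.4 (0.14) and without integration (0.030), and Sema6d at 0.4 (0.41), at 1.2 (0.16) and without integration (0.59), passing the test at 0.4 and without integration (adjusted p = 0.0186 and 0.0224). At 0.4 the venous-like class held 1062 cells, against 1814 in the main clustering. The cause of the turned directions was not tested.

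Between genotype labels none of the 51 genes was called with any library left out (0 to 0 in each class), without replicate 3 of both groups or with few-UMI clusters counted in, both chosen after the data were seen. Over all genes, 1 was called in 3 of the 48 fits with a library left out and none in the other 45. Without the filter on low counts 6 to 114 genes were called per class (0.0241% to 0.475%), among them 3 of the family, Sema7a in chondrocyte-like and HTC-like cells (1.86, adjusted p = 0.00151), where it was at 49.2 UPM in knockout library 2 and at most 6.86 UPM elsewhere, Sema6a in osteoblast-like cells (-1.84, adjusted p = 0.0291) and Sema3c in fibroblast-like cells (-1.50, adjusted p = 0.0130). Without integration no fibroblast-like class could be compared. In no class did all 3 same-numbered pairs have a correlation of deviations above 0.1 (-0.19 to 0.45 over the pairs and classes). The highest value was that of pair 1 in osteoblast-like cells, and replicate 1 of both groups was counted with Cell Ranger 6.1.1. Whether the numbers pair the mice was therefore not settled. The comparisons between labels were run without pairing, and the replicate block called 0 genes in each of the 8 classes.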
